A study of Rattus norvegicus with 9 samples.

Results

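The genes described here encode the subunits of the oxidative phosphorylation system, the respiratory chain and ATP synthase of mitochondria. They were taken from the deposited expression table as protein-coding genes that lie on the mitochondrial chromosome, or whose symbol begins with the family names of complex I to V subunits (Nduf, Sdh, Uqcr, Cox4 to Cox8, Atp5). This gave 99 of 34267 genes, of which 13 are encoded by the mitochondrial genome and 86 by the nucleus. RNA was sequenced from wild-type (WT) rat cartilage progenitor cells, grown as primary cultures from condylar cartilage. The P9 group was cultured to passage 9, as a model of replicative senescence. The FFSS group was passage 3 cells that had received flow fluid shear stress, the force of moving liquid on a cell layer, as a model of degeneration. The P3 group was passage 3 cells and served as the control of both. Each group had 3 libraries. The level and duration of the shear and the age of the rats are not given in the sources used here. Nor is it stated that replicates are separate cultures or animals, so p-values measure only the spread between these libraries, which may be technical.

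Oxidative phosphorylation passes electrons from NADH and succinate through complexes I, II, III and IV to oxygen, and complex V uses the resulting proton gradient to make ATP. The mitochondrial genome encodes hydrophobic core subunits of complexes I, III, IV and V, which are transcribed as long precursors and cut into messengers. The nucleus encodes the other subunits, among them all of complex II, so that the system needs messengers from both genomes. Chondrocytes live in a tissue with few vessels and are known for a large share of glycolysis in their ATP supply.

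The nuclear genes are transcribed from separate promoters, and RefSeq promoter windows of the rat build GRCr8 (250 bases before to 50 after the transcription start) were found for 72 of 84 nuclear symbols. Both strands were searched for 6 short motifs. The motif of the nuclear respiratory factor NRF1 was in 12 of the 72 windows (16.7%), against 4.25% of all 33469 promoters. The ETS motif CCGGAAG was in 27.8% of the members' windows, against 8.75% of all promoters. The YY1 motif AAGATGGCG was in 12.5%, against 1.73% of all. The MEF2 motif, whose letters on the other strand stand in capitals nearest to the start in the Cox6a2 window, was in 1 window (1.39%), against 0.137% of all. The E-box CAGCTG was in 16.7%, against 15.1% of all. The hypoxia response core ACGTG was in 26.4%, against 19.3% of all. These matches are letters in a window and show no binding. The 4 windows below belong to genes described further on. They are Cox6a2, the member that differed in each comparison, and Cox4i1, the broadly expressed form of the complex IV pair Cox4i1 and Cox4i2. The others are Ndufa6, which was higher in FFSS cells, and Uqcrq, which was higher in P9 cells. Capitals mark the motif matches, and each window is read 5′ to 3′ on the strand of the gene.
Cox6a2, chr1:192219667-192219966, minus strand, with the E-box from base 107 and the MEF2 motif from base 50 before the start: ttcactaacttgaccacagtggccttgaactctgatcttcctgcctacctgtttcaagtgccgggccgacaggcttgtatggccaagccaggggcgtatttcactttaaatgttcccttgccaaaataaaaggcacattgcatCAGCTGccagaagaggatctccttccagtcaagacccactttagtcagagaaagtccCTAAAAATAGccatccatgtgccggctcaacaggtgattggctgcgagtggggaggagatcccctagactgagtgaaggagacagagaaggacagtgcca
Cox4i1, chr19:65630133-65630432, plus strand, with an E-box from base 80 and the hypoxia core from base 49 before the start, and ETS motifs from base 4 and base 24 after it: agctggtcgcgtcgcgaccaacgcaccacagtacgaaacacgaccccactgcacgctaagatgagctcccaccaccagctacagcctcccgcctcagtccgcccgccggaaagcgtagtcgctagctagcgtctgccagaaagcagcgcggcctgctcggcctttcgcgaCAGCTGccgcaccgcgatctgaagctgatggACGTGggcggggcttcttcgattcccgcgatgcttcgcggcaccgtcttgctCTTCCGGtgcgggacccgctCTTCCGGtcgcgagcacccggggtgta
Ndufa6, chr7:115750268-115750567, minus strand, with an ETS motif from base 190 before the start and the YY1 motif from base 16 after it: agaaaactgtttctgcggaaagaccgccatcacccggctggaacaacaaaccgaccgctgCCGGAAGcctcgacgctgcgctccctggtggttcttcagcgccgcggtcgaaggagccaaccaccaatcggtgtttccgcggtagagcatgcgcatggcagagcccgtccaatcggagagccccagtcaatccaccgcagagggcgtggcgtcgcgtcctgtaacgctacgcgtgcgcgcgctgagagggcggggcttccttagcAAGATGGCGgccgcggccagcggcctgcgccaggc
Uqcrq, chr10:38089929-38090228, minus strand, with an ETS motif from base 22 and the hypoxia core from base 13 before the start: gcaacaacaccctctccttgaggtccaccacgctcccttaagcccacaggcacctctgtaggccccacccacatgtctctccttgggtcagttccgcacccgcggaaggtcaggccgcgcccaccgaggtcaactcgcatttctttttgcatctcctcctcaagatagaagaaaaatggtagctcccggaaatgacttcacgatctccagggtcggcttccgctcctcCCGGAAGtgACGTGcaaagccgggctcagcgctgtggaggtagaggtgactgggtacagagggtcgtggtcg

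Library totals were 13264930 to 15323790 fragments. Thy1, a marker of the progenitor cells, was at 823 to 1196 FPKM in P9, 1296 to 1437 FPKM in FFSS and 824 to 949 FPKM in P3 libraries, where FPKM is fragments scaled to gene length and library size, a scale that allows levels of different genes to be compared. The other progenitor markers listed did not share one order. Acan, the aggrecan core protein, was at 499 to 609 FPKM in P9, 29.3 to 48.2 FPKM in FFSS and 122 to 135 FPKM in P3, and Eng, a surface receptor, at 23.3 to 35.7, 72.96 to 121 and 53.6 to 62.9 FPKM in the same groups. Prg4, lubricin of the joint surface, was at most 0.0778 FPKM in P9, 1.77 to 41.9 FPKM in FFSS and 0.798 to 9.28 FPKM in P3. Col2a1, a collagen that defines mature chondrocytes and stands on both marker lists, was at most 1.06 FPKM in all 9 libraries. The sum of the 5 chondrocyte markers was 0.985 to 3.36 FPKM in P9, 2.37 to 11.8 FPKM in FFSS and 7.33 to 8.41 FPKM in P3, most of it Comp in P3, and Matn1 was at 0. This sum leaves out Acan, which was highest in P9. The part of these differences between the groups in the results below was not tested. Of the FFSS libraries, replicate 1 stood nearest to P3, with a correlation of log values of 0.936 to 0.945 with the P3 libraries, against 0.890 to 0.918 for the other FFSS libraries. In the bulk RNA measured here, fewer cells of a type and less RNA per cell cannot be told apart.

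All 13 mitochondrial members and 80 of the 86 nuclear members had at least 1 FPKM in at least 3 libraries and were tested with limma on log2(FPKM + 1), with Benjamini-Hochberg adjustment over all 13059 genes that passed this filter. The other 6 nuclear members are isoforms or copies at or near 0. Cox7b2, Cox8c, Cox6c-ps1 and Ndufa10l1 had 0 fragments in all 9 libraries, Cox8b had 3 fragments in total and Cox7a1 had 33. Cox7a1 and Cox8b belong to the muscle-type forms of complex IV.

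The 13 mitochondrial messengers together took 2.26, 2.51 and 2.29% of the fragments in the P9 libraries. In FFSS libraries they took 3.38, 3.57 and 2.85%, and in P3 libraries 2.09, 2.29 and 2.24%. All FFSS libraries lay above all others. The summed FPKM of the mitochondrial members was 2.69, 2.50 and 2.50 times that of the nuclear members in P9 libraries, 3.24, 3.97 and 3.35 times in FFSS libraries and 2.62, 3.02 and 2.54 times in P3 libraries. The FFSS ratios were again above all others, while the P9 and P3 ranges overlapped. The nuclear sum itself overlapped between the groups, at 7812 to 9834 FPKM in P9, 8137 to 9965 FPKM in FFSS and 7888 to 8801 FPKM in P3.

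**Figure D1:**
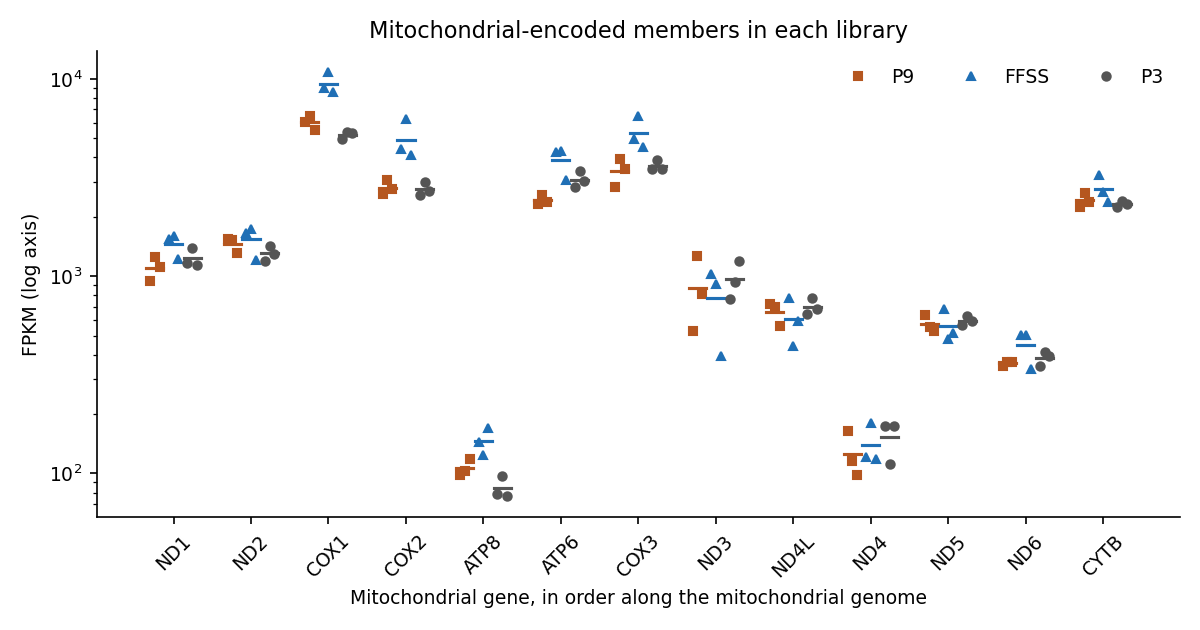
FPKM of the 13 mitochondrial members on a log axis, with 1 point for each of the 3 libraries of P9, FFSS and P3 and a line at the group mean. COX1 is the highest gene in each group, and its 3 FFSS points, 8559 to 10841 FPKM, lie above all others.

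After 9 passages none of the 13 mitochondrial members passed the test against P3, with a median log2 fold change of -0.09. The unadjusted p was under 0.05 for 0 of them, and voom on the recovered fragments also called 0. For the background, 5.39% of all tested genes were called higher and 4.44% lower in P9. Of the 80 nuclear members tested, 2 were higher in P9 (Cox6c and Uqcrq) and 1 was lower (Cox6a2), with a median of 0.07. The count of 2 higher nuclear members became 0 when any single P3 library, P9 replicate 1 or P9 replicate 2 was left out. It became 1 on leaving out P9 replicate 3 or FFSS replicate 3. Both medians lay near 0 and turned with single libraries: the mitochondrial one was 0.03 with P9 replicate 1 left out, and the nuclear one -0.02 with P9 replicate 2 left out. Without overlap between the groups, 2 mitochondrial and 12 nuclear members lay above P3 in all P9 libraries, against 20.9% of all genes, and 1 and 3 lay below, against 19.1%.

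Under shear, 3 mitochondrial members passed the test against P3, COX1, COX2 and ATP8, all higher in FFSS cells, and none was lower. The median over the 13 was 0.23, against -0.01 over all tested genes. Called genes made up 11.4% of all tested genes for higher and 10.4% for lower in FFSS. Among the nuclear members 4 were higher (Cox4i2, Ndufa4, Ndufb7 and Ndufa6) and 1 lower (Cox6a2), with a median of 0.14. In counts without overlap, 4 mitochondrial and 21 nuclear members lay above P3, against 20.1% of all genes, and 0 and 3 lay below, against 22.3%. Without P9 replicate 1, which sets part of the shared spread, 9 nuclear members were called higher; without P3 replicate 1 or P3 replicate 2 it was 1, and without P3 replicate 3 it was 2. The nuclear members called lower numbered 4 without FFSS replicate 1. The mitochondrial median was 0.38 with FFSS replicate 3 left out, and the nuclear one 0.04 with FFSS replicate 1 left out.

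Between the models, P9 minus FFSS, 4 mitochondrial members were lower in P9 (COX1, COX2, COX3 and ATP6) and 0 higher, with a median of -0.28. Over all tested genes 16.1% were called higher and 15.3% lower in P9. Among nuclear members 6 were higher (Uqcrq, Sdhc, Cox6a2, Atp5f1b, Ndufs1 and Ndufa10) and 3 lower (Cox4i2, Ndufa4l2 and Ndufa13), with a median of -0.07. Groups without overlap had 0 mitochondrial and 7 nuclear members above FFSS in P9, against 22.2% of all genes, and 5 and 5 below, against 20%. The nuclear count of 6 depended on single libraries: it was 15 without FFSS replicate 1, and 3 without any other library except P9 replicate 3. The nuclear median turned to 0.03 with FFSS replicate 1 left out and to 0.02 with P9 replicate 1 left out.

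**Figure D2:**
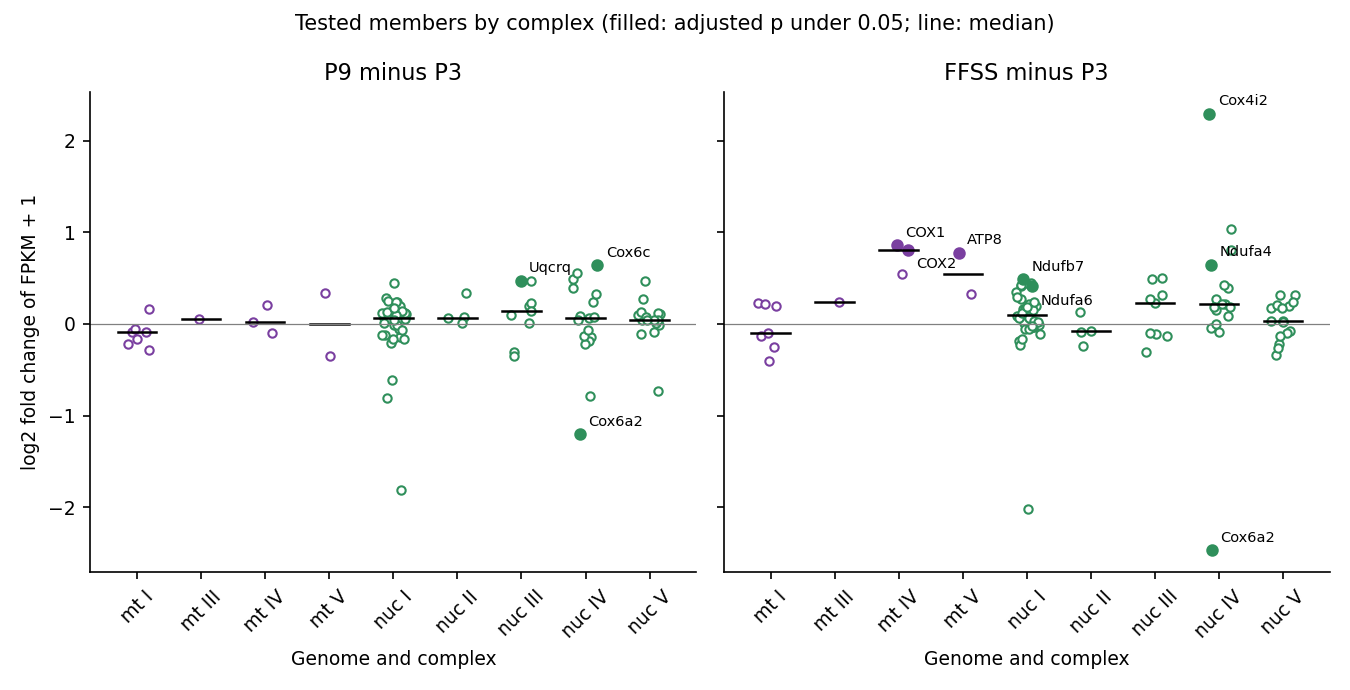
Log2 fold change of FPKM + 1 of each tested member, for P9 minus P3 and FFSS minus P3, by genome (mt, mitochondrial; nuc, nuclear) and complex; filled points passed the limma test and lines are medians. The mitochondrial complex IV genes form the group with the highest median under shear, 0.81, while most nuclear points lie near 0.

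Complex IV, cytochrome c oxidase, reduces oxygen, and its catalytic core is made of COX1, COX2 and COX3. COX1 (mitochondrial genome, 5323 to 6867 in Rnor_6.0), which holds the haem groups, had 6048, 6475 and 5534 FPKM in P9, 8979, 10841 and 8559 FPKM in FFSS and 4942, 5369 and 5294 FPKM in P3 cells. All FFSS libraries were above all P3 and P9 libraries. The log2 fold change was 0.86 ± 0.16 (SE) for FFSS minus P3, with a limma adjusted p of 0.0074, and -0.65 ± 0.16 for P9 minus FFSS, adjusted p 0.0141. The FFSS call missed the threshold with no filter on low values (0.262), and the difference between the models missed the threshold with no filter on low values (0.375) and with only the compared groups in the fit (0.074).

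COX2, which takes electrons from cytochrome c, had 2615, 3062 and 2763 FPKM in P9, 4394, 6254 and 4117 FPKM in FFSS and 2590, 2999 and 2702 FPKM in P3 cells. Again the FFSS libraries stood above the rest, with FFSS replicate 2 the highest, and the P9 and P3 ranges overlapped. FFSS minus P3 was 0.81 ± 0.18 with a limma adjusted p of 0.0159, which missed the threshold with no filter on low values (0.148) and on leaving out P3 replicate 1 or 3 (0.059 to 0.0714). P9 minus FFSS was -0.78 ± 0.18, adjusted p 0.0121, and missed the threshold with no filter on low values (0.132) and with only the compared groups in the fit (0.0523). COX3, the third core subunit, had 2833, 3926 and 3486 FPKM in P9, 4959, 6479 and 4533 FPKM in FFSS and 3504, 3861 and 3482 FPKM in P3 cells. Its FFSS libraries also lay above the others, but FFSS minus P3 was 0.54 ± 0.19 with a limma adjusted p of 0.0681. Against FFSS, the P9 log2 fold change was -0.64 ± 0.19, adjusted p 0.0309, and missed the threshold with no filter on low values (0.256), with only the compared groups in the fit (0.0996) and on leaving out P9 replicate 1 or 3, FFSS replicate 2, or any single P3 library (0.0514 to 0.0795).

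Of the mitochondrial genes for complex V, ATP8 and ATP6 share an overlapping reading frame and a messenger. ATP8, a small membrane subunit, had 98.5, 103 and 118 FPKM in P9, 144, 124 and 169.6 FPKM in FFSS and 78.4, 97.4 and 77.05 FPKM in P3 cells. Against P3, the FFSS log2 fold change was 0.78 ± 0.15 with a limma adjusted p of 0.00882, and it held in the other settings (adjusted p 0.00747 to 0.0445). ATP6, which forms part of the proton channel, had 2329, 2564 and 2375 FPKM in P9, 4255, 4327 and 3089 FPKM in FFSS and 2841, 3396 and 3021 FPKM in P3 cells. P9 was below P3 and below FFSS in all libraries, while FFSS replicate 3 fell within the P3 range. The log2 fold change for P9 minus FFSS was -0.67 ± 0.17, adjusted p 0.0166 by limma, which missed the threshold with no filter on low values (0.163) and with only the compared groups in the fit (0.0629). The FFSS to P3 log2 fold change was 0.32 ± 0.17, adjusted p 0.194. The genes overlap by 43 bases, and ATP6 and COX3 by 1 base, so their fragments are not fully separate. ATP8 averaged 112 FPKM over all libraries, against 3133 FPKM for ATP6, although both lie on a shared messenger. The P9 minus P3 log2 fold change was 0.34 for ATP8 and -0.35 for ATP6. The level of the ATP8 row and its changes are therefore uncertain.

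None of the 7 mitochondrial complex I genes, ND1 to ND6 and ND4L, passed the test in any of the 3 comparisons. They encode the membrane part that pumps protons. Only ND1 had an unadjusted p under 0.05, for P9 minus FFSS. ND2 had 1537, 1530 and 1317 FPKM in P9, 1658, 1732 and 1212 FPKM in FFSS and 1200, 1414 and 1294 FPKM in P3 cells, with overlap between all groups. ND5 had 636, 552 and 529 FPKM in P9, 682, 481 and 516 FPKM in FFSS and 564, 628 and 589.8 FPKM in P3 cells, also with overlap. ND3 had the largest standard error of the 13, 0.41 on the log2 scale, with 525, 1272 and 811 FPKM in P9, 1025, 910.1 and 395 FPKM in FFSS and 768, 930.2 and 1191 FPKM in P3 cells. ND6, the only member on the other strand of the mitochondrial genome, had 352, 368 and 368 FPKM in P9, 504, 501 and 339 FPKM in FFSS and 351, 415 and 395 FPKM in P3 cells, and its 23 bases shared with ND5 cannot be assigned, as the strandedness of the counting is not given in the sources used here. CYTB, cytochrome b and the only mitochondrial subunit of complex III, had 2242, 2630 and 2385 FPKM in P9, 3268, 2659 and 2370 FPKM in FFSS and 2254, 2412 and 2309 FPKM in P3 cells, and FFSS minus P3 was 0.24 ± 0.15 with a limma adjusted p of 0.288.

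**Figure D3:**
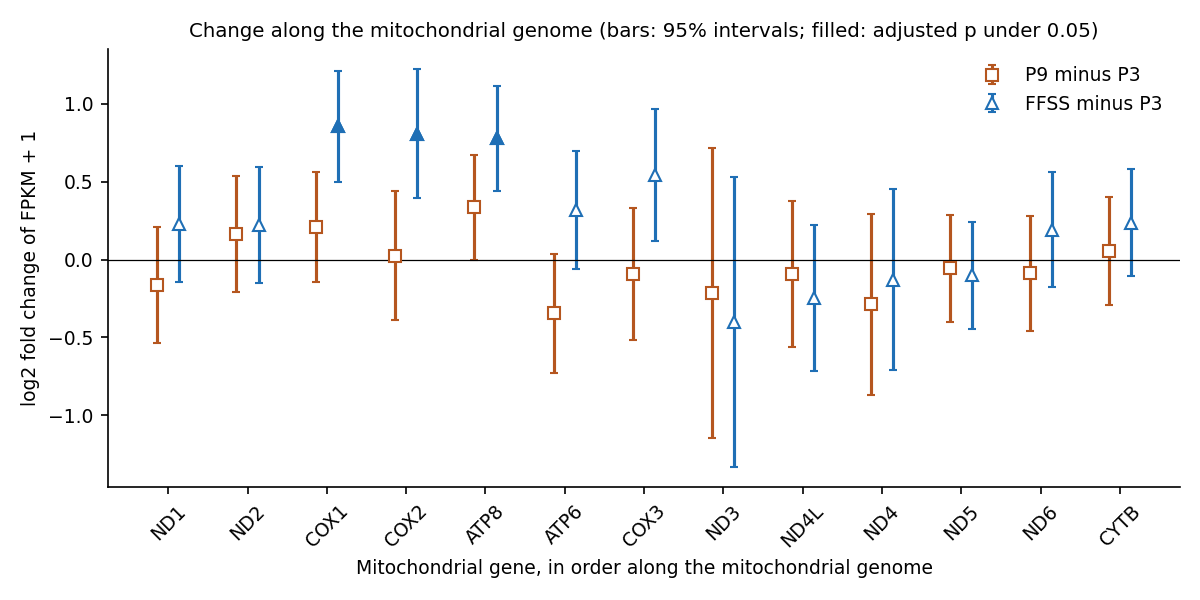
Log2 fold change of FPKM + 1 for P9 minus P3 (squares) and FFSS minus P3 (triangles) in the order of the genes along the mitochondrial genome; bars are 95% intervals from limma and filled symbols passed the test. The filled symbols are 3 neighbouring genes under shear, COX1, COX2 and ATP8, and the genes from ND3 on have intervals that include 0.

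The composition of the mitochondrial messengers also differed. COX1 took 42.5, 40.4 and 39.4% of their fragments in P9, 42.2, 44.9 and 46.5% in FFSS and 36.4, 35.6 and 37.1% in P3 libraries. The P3 range was below both others. ND1 took 4.10, 4.82 and 4.92% in P9, 4.46, 4.09 and 4.09% in FFSS and 5.32, 5.68 and 4.96% in P3 libraries. The P9 and the FFSS shares of ND1 were all below those of P3. Shares within the 13 genes sum to a fixed total, so a higher share of one gene lowers the others.

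Measures of RNA without a long poly(A) tail were highest in the FFSS libraries. In P9 they did not share one direction: ribosomal RNA lay above P3 and the histone sum below it. Mitochondrial ribosomal RNA took 0.0492, 0.0458 and 0.0346% of the fragments in P9, 0.0557, 0.170 and 0.102% in FFSS and 0.0282, 0.0258 and 0.0316% in P3 libraries. The summed level of 31 histone genes, most of whose messengers lack a poly(A) tail, was 208 to 252 FPKM in P9, 728 to 790 FPKM in FFSS and 256 to 306 FPKM in P3 libraries. Lists of markers of other cells did not share one direction. The sum of 5 of 6 listed leukocyte markers was 0.456 to 1.07 FPKM in P9, 2.37 to 11.3 FPKM in FFSS and 0.838 to 1.26 FPKM in P3 libraries. Of these, Cd68 was at 2.11 FPKM or more in all FFSS libraries, against at most 0.873 FPKM in P9 and P3. Lyz2 was at 5.36 and 2.94 FPKM in FFSS replicates 2 and 3, and Csf1r at 3.17 and 2.08 FPKM. In FFSS replicate 1 they were at 0.0562 and 0.0840 FPKM. Aif1 was at most 0.153 FPKM and Ptprc at most 0.0400 FPKM in any library. The sum of 4 glial markers, nearly all of it S100b, was 18.1 to 26.5 FPKM in P9, 64.6 to 89.9 FPKM in FFSS and 15.2 to 28.8 FPKM in P3 libraries, with Sox10 at most 0.0444 FPKM. The sum of endothelial markers went the other way against P3, with 0.142 to 0.273 FPKM in P9, 0.448 to 0.692 FPKM in FFSS and 0.817 to 0.956 FPKM in P3. In P3 most of it was Kdr, at 0.727 to 0.836 FPKM, against at most 0.0725 FPKM in P9 and 0.655 FPKM in FFSS. Tek was higher in P9, at 0.109 to 0.225 FPKM, than in P3, at 0.0870 to 0.0955 FPKM. Vwf was at most 0.101 FPKM and Cdh5 at 0. Fat markers summed to 3.82 to 5.04 FPKM in P9, 0.180 to 1.70 FPKM in FFSS and 1.33 to 2.32 FPKM in P3. In P9 and P3 most of it was Cidea, at 3.74 to 5.04 FPKM and 1.21 to 2.13 FPKM. Adipoq was lower in P9, at most 0.0607 FPKM, than in P3, at 0.0973 to 0.166 FPKM. Plin1 was at most 0.180 FPKM and Ucp1 at 0. The sum of skeletal muscle markers, given below, was lower in FFSS than in P3, through Acta1. Myh1 was higher in FFSS than in P3, at 0.378 to 0.460 FPKM against 0.243 to 0.356 FPKM. The part of these measures in the higher mitochondrial messengers of FFSS cells was not tested.

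Complex I, NADH dehydrogenase, had 34 tested nuclear members, of which 0 were called in P9 minus P3 and 2 were higher in FFSS minus P3, where 11.4% of all tested genes were higher. Ndufv1, which binds NADH and was chosen for that role outside the naming rule, had 56.7, 59.8 and 60.3 FPKM in P9, 76.7, 54.4 and 59.4 FPKM in FFSS and 63.9, 60.3 and 60.9 FPKM in P3 cells. Ndufs1, which carries iron-sulfur clusters, had 33.3, 36.1 and 34.5 FPKM in P9, 28.4, 27.9 and 29.4 FPKM in FFSS and 31.1, 32.6 and 32.9 FPKM in P3 cells. The ranges of Ndufv1 overlapped between all groups, while all P9 libraries of Ndufs1 were above and all FFSS libraries below P3. P9 minus FFSS for Ndufs1 was 0.27 ± 0.09 with a limma adjusted p of 0.0469, which missed the threshold with voom on the recovered fragments (0.0547), with only the compared groups in the fit (0.152) and on leaving out any single P9 library, FFSS replicate 2 or 3, or any single P3 library (0.05004 to 0.145).

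Among the accessory subunits, Ndufb7 had 81.8, 104 and 98.9 FPKM in P9, 119, 117 and 103 FPKM in FFSS and 80.3, 87.8 and 72.6 FPKM in P3 cells. Its FFSS minus P3 change was 0.49 ± 0.13, adjusted p 0.0268 by limma, with all FFSS libraries above P3, and the call missed the threshold on leaving out FFSS replicate 2 or any single P3 library (0.051 to 0.102). Ndufa6, whose promoter window with ETS and YY1 letters is printed above, had 88.3, 89.7 and 74.9 FPKM in P9, 102, 89.5 and 91.5 FPKM in FFSS and 70.6, 62.1 and 79.8 FPKM in P3 cells. Its FFSS libraries were above P3 and overlapped P9. FFSS minus P3 was 0.41 ± 0.13, adjusted p 0.0465 by limma, and it missed the threshold with no filter on low values (0.0603), with library totals as the scale (0.0589), with voom on the recovered fragments (0.0543), with only the compared groups in the fit (0.0644) and on leaving out P9 replicate 2, any single FFSS library, or any single P3 library (0.0541 to 0.161).

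Ndufa13, an accessory subunit also known as GRIM-19 and the nuclear complex I member with the highest mean, had 102, 157 and 143 FPKM in P9, 202, 205 and 203 FPKM in FFSS and 149, 154 and 155 FPKM in P3 cells. The FFSS libraries lay within a narrow range above all others. Its P9 minus FFSS change was -0.62 ± 0.15 with a limma adjusted p of 0.0146, and it missed the threshold with only the compared groups in the fit (0.0562). Ndufa10, another accessory subunit, had 35.8, 39.1 and 33.8 FPKM in P9, 30.7, 28.5 and 28.5 FPKM in FFSS and 31.5, 33.96 and 34.9 FPKM in P3 cells. P9 minus FFSS was 0.30 ± 0.10, adjusted p 0.0493 by limma, which missed the threshold with voom on the recovered fragments (0.0568), with only the compared groups in the fit (0.14) and on leaving out any single P9 library, FFSS replicate 2 or 3, or any single P3 library (0.0595 to 0.162).

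Complex II, succinate dehydrogenase, links the tricarboxylic acid cycle to the chain and is encoded by 4 nuclear genes. Sdhc, a membrane anchor, had 99.8, 93.01 and 83.6 FPKM in P9, 71.5, 57.5 and 55.8 FPKM in FFSS and 74.3, 70.3 and 72.8 FPKM in P3 cells. P9 lay above P3 and above FFSS in all libraries. Against FFSS, the P9 log2 fold change was 0.58 ± 0.12 with a limma adjusted p of 0.00782, and it held in the other settings (adjusted p 0.001 to 0.0395). P9 minus P3 was 0.34 ± 0.12, adjusted p 0.13. The other 3 were called in no comparison: Sdha, the flavoprotein, averaged 49.1 ± 4.25 FPKM in P9, 50.9 ± 2.89 FPKM in FFSS and 46.4 ± 1.89 FPKM in P3 cells (SD, n = 3 each). Sdhb, the iron-sulfur subunit, averaged 65.3 ± 1.88 FPKM in P9, 59.5 ± 6.03 FPKM in FFSS and 62.6 ± 4.18 FPKM in P3 cells. Sdhd, the other anchor, averaged 44.2 ± 3.88 FPKM in P9, 41.3 ± 4.54 FPKM in FFSS and 43.7 ± 1.32 FPKM in P3 cells.

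Complex III, the cytochrome bc1 complex, had 9 tested nuclear rows. Uqcrq, a small subunit next to cytochrome b, had 137, 137 and 126 FPKM in P9, 102, 88.6 and 78.4 FPKM in FFSS and 94.5, 98.1 and 95.5 FPKM in P3 cells. Its P9 libraries were above all others, and the FFSS and P3 ranges overlapped. Against P3, the P9 log2 fold change was 0.47 ± 0.11 with a limma adjusted p of 0.0331, and this call missed the threshold on leaving out any single P9 library or any single P3 library (0.0655 to 0.136). The log2 fold change for P9 minus FFSS was 0.58 ± 0.11, adjusted p 0.00598, and it held in the other settings (adjusted p 0.000897 to 0.0351). Uqcr11, the nuclear complex III member with the highest mean, had 67.5, 205 and 175 FPKM in P9, 254, 248 and 205 FPKM in FFSS and 165, 159.6 and 173 FPKM in P3 cells. P9 replicate 1 was below all other libraries, and no comparison of Uqcr11 passed the test. Uqcrb has rows on chromosomes 1 and 7, which may be near-identical copies and share reads.

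The nuclear genes of complex IV include pairs of isoforms, a common one and one known from muscle, lung or low oxygen. Cox6a2, the heart and skeletal muscle form (chromosome 1, 199624037 to 199624783, minus strand in Rnor_6.0), had 15.7, 31.3 and 23.3 FPKM in P9, 7.04, 10.7 and 9.07 FPKM in FFSS and 51.8, 55.7 and 52.8 FPKM in P3 cells. The 3 groups did not overlap, with FFSS lowest and P3 highest. P9 minus P3 was -1.20 ± 0.23 with a limma adjusted p of 0.0113, and it held in the other settings (adjusted p 0.00611 to 0.0482). Against P3, the FFSS log2 fold change was -2.47 ± 0.23, adjusted p 0.000547, and it held in the other settings (adjusted p 0.000271 to 0.00511). Its P9 minus FFSS change was 1.27 ± 0.23, adjusted p 0.00393, and it held in the other settings (adjusted p 0.00186 to 0.02). The common form Cox6a1 had 359.7, 595 and 518 FPKM in P9, 529, 577 and 557 FPKM in FFSS and 452, 454 and 465 FPKM in P3 cells and passed no test. The window of Cox6a2 printed above holds the MEF2 letters of the only member with a match.

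Markers of skeletal muscle had another order. The summed level of 5 of 6 listed muscle genes was 40.01 to 47.2 FPKM in P9, 0.686 to 2.003 FPKM in FFSS and 2.70 to 14.3 FPKM in P3 libraries, and was highest where Cox6a2 was intermediate. Acta1, skeletal actin, made up most of it, while Ckm, muscle creatine kinase, was at most 0.0504 FPKM and Myog, a muscle transcription factor, at most 0.0948 FPKM. Myh1, a muscle myosin, was also highest in P9, at 2.98 to 4.87 FPKM, against at most 0.460 FPKM in FFSS and 0.356 FPKM in P3. Myod1, another muscle transcription factor, was at 0.0673 to 0.604 FPKM in P9, 0 in FFSS and at most 0.112 FPKM in P3.

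Cox4i2 (chromosome 3, 148234193 to 148245416, plus strand), a form known from lung and induced by low oxygen in human and mouse cells, had 2.43, 1.55 and 0.293 FPKM in P9, 11.7, 4.81 and 5.55 FPKM in FFSS and 0.690, 0.481 and 0.642 FPKM in P3 cells. These rest on few fragments, 35, 25 and 5 in P9, 184, 74 and 87 in FFSS and 11, 7 and 10 in P3 libraries, and the pseudocount of 1 understates the fold. The FFSS libraries were above all others. The FFSS to P3 log2 fold change was 2.29 ± 0.39 with a limma adjusted p of 0.00582, and it held in the other settings (adjusted p 0.00389 to 0.0269). P9 minus FFSS was -1.80 ± 0.39, adjusted p 0.00829, and it held in the other settings (adjusted p 0.00679 to 0.0305). Cox4i1, the common form, had 402, 459 and 411 FPKM in P9, 446, 451 and 372 FPKM in FFSS and 386, 378 and 432 FPKM in P3 cells, and passed no test.

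Ndufa4, counted with complex IV although named after complex I, had 188, 143 and 128 FPKM in P9, 188, 185 and 169 FPKM in FFSS and 119, 103 and 123 FPKM in P3 cells. All P9 and all FFSS libraries lay above P3. Its FFSS minus P3 change was 0.65 ± 0.15 with a limma adjusted p of 0.0182, which missed the threshold on leaving out P3 replicate 1 or 2 (0.0582 to 0.0733); P9 minus P3 was 0.39 ± 0.15, adjusted p 0.156. The row overlaps Phf14 on the other strand by 121 bases. Ndufa4l2, its paralog and a target of the hypoxia factor HIF-1 in human and mouse cells, had 0.544, 0.0695 and 0.131 FPKM in P9, 7.66, 0.728 and 4.42 FPKM in FFSS and 1.68, 0.769 and 1.01 FPKM in P3 cells. FFSS replicate 2 fell below the P3 range, and all P9 libraries were below both other groups. Against FFSS, the P9 log2 fold change was -1.81 ± 0.51, adjusted p 0.0259 by limma, and it missed the threshold with no filter on low values (0.0513), with only the compared groups in the fit (0.0636) and on leaving out any single P9 library or FFSS replicate 3 (0.05002 to 0.0865).

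**Figure D4:**
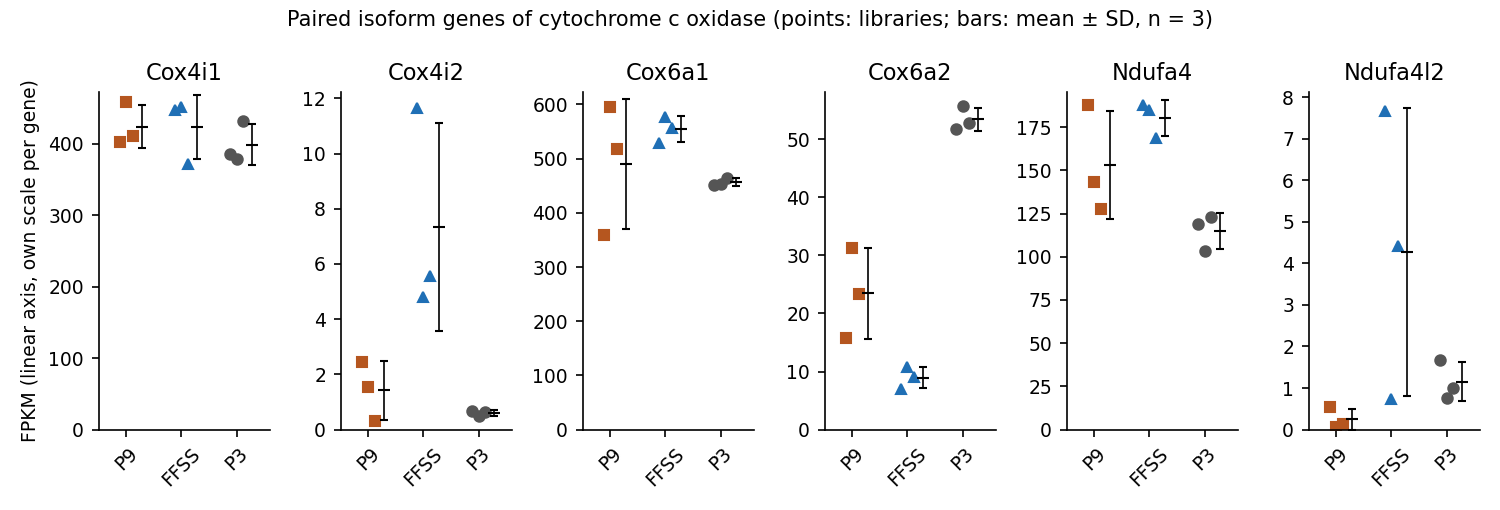
FPKM of 3 pairs of complex IV isoform genes in the 3 libraries of P9, FFSS and P3, on a linear axis with its own scale for each gene; black marks are the mean ± SD. Cox6a2 is highest in P3 and Cox4i2 in FFSS, while Cox4i1 and Cox6a1 have 359.7 FPKM or more in every library.

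Cox6c, a small subunit of complex IV, had 317, 248 and 197 FPKM in P9, 196, 195 and 165 FPKM in FFSS and 157, 163 and 159 FPKM in P3 cells, and its P9 libraries were above all others. Against P3, the P9 log2 fold change was 0.64 ± 0.17 with a limma adjusted p of 0.0433, and the call missed the threshold with no filter on low values (0.0732) and on leaving out P9 replicate 1 or 2, FFSS replicate 3, or any single P3 library (0.0604 to 0.149). The other isoform sets were called in no comparison. Cox7a2 averaged 153 ± 39.98 FPKM in P9, 138 ± 22.4 FPKM in FFSS and 102 ± 5.62 FPKM in P3 cells (SD, n = 3 each), and Cox7a2l, a factor in joining complexes III and IV, 99.8 ± 10.1 FPKM in P9, 111 ± 20.3 FPKM in FFSS and 116 ± 0.800 FPKM in P3 cells. Cox8a averaged 285 ± 58.99 FPKM in P9, 336 ± 33.6 FPKM in FFSS and 295 ± 9.82 FPKM in P3 cells. Cox6b1 on chromosome 1 averaged 161 ± 36.3 FPKM in P9, 202 ± 19.8 FPKM in FFSS and 154 ± 13.5 FPKM in P3 cells, against at most 4.13 FPKM in any library for Cox6b2, the testis form. Cox6b1 also has a row of 261 bases on chromosome 2. On the log2 scale it deviated from the other P9 libraries by -1.27 in P9 replicate 1 and 0.95 in P9 replicate 2. Whether the Cox6b1 rows share reads was not tested.

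Complex V, ATP synthase, had 16 tested nuclear members and no call against P3 in either model. Atp5f1b, the catalytic beta subunit and the nuclear complex V member with the highest mean, had 432, 447 and 424 FPKM in P9, 386, 319.6 and 326 FPKM in FFSS and 398, 384 and 415 FPKM in P3 cells. The log2 fold change for P9 minus FFSS was 0.34 ± 0.11 with a limma adjusted p of 0.0438, with all P9 libraries above FFSS, and it missed the threshold with no filter on low values (0.0696), with only the compared groups in the fit (0.136) and on leaving out any single P9 library, FFSS replicate 2 or 3, or any single P3 library (0.0692 to 0.136). Atp5if1, the inhibitor that stops ATP synthase from consuming ATP, had 192, 249 and 200.1 FPKM in P9, 213, 143 and 134 FPKM in FFSS and 164, 166 and 196 FPKM in P3 cells, with overlap between all groups. P9 minus FFSS for Atp5if1 was 0.41 ± 0.19, adjusted p 0.131.

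Many nuclear members are short, with a median length of 693.5 bases over the 80 tested, against 2330 bases over 11469 tested protein-coding genes. The P9 libraries differed by length among the 75 members with a mean of at least 5 FPKM (Ndufa1 left out). In P9 replicate 1, members of up to 500 bases lay at a median log2 deviation of -0.48 from the other P9 libraries (n = 21), those above that and up to 1000 bases at -0.25 and longer ones at -0.10. In P9 replicate 2 the deviations were 0.40, 0.22 and 0.11, and in P9 replicate 3 they were 0.01, 0.02 and -0.004. Each is taken from the other P9 libraries, so a low value in 1 library raises the deviations of the others. Not all short members followed the medians: Cox6c, Cox7a2 and Cox7b, of 448, 478 and 478 bases, deviated by 0.52, 0.60 and 0.56 in P9 replicate 1. Ndufa3, an accessory complex I subunit chosen here after its values were seen, had 7.70, 115 and 76.4 FPKM in P9, 85.5, 114 and 72.7 FPKM in FFSS and 68.8, 68.9 and 84.4 FPKM in P3 cells, and Atp5me, of the membrane part of complex V and chosen likewise, had 12.4, 107 and 85.6 FPKM in P9, 110.1, 102 and 76.1 FPKM in FFSS and 77.8, 85.6 and 82.99 FPKM in P3 cells. In both, P9 replicate 1 was below the other 8 libraries. The part of these differences in the few nuclear calls in P9 was not tested.

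**Figure D5:**
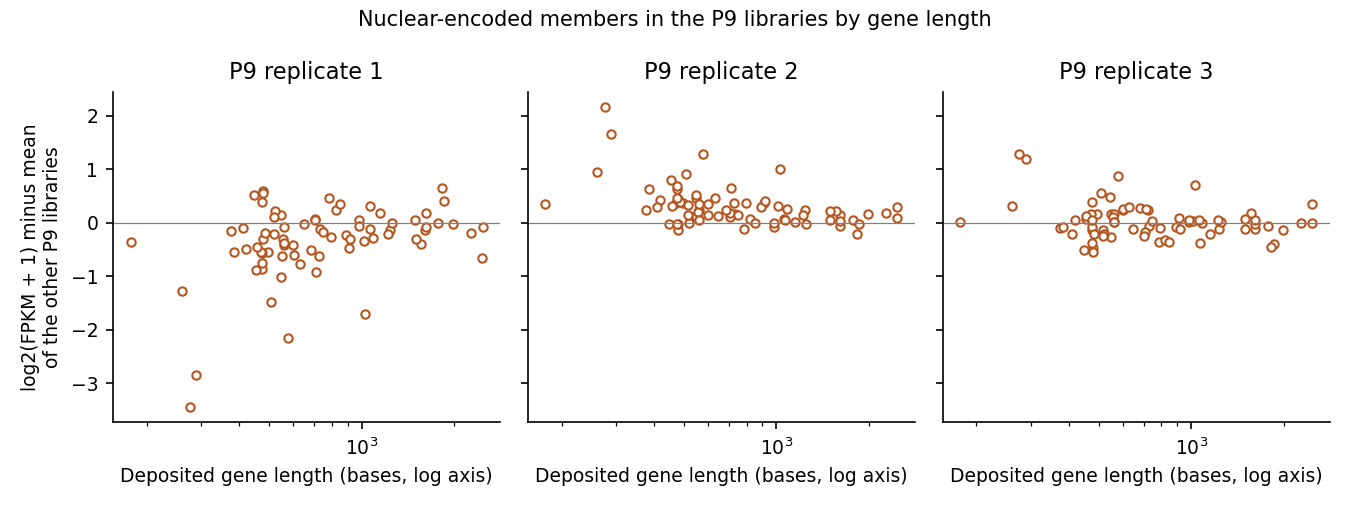
Deviation of each nuclear member in a P9 library from the mean of the other P9 libraries, on the log2(FPKM + 1) scale, against the deposited gene length on a log axis. Most short members lie low in replicate 1, with a median of -0.48 up to 500 bases, and high in replicate 2, with 0.40. Some go the other way, among them Cox6c.

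Some rows may share reads with similar rows elsewhere, which was not tested against the genome sequence. Ndufa1, a complex I subunit, was listed at 157 FPKM in P3 replicate 3 and at most 2.20 FPKM in the other libraries, and a row named LOC108348144, also on chromosome X, was at 13.1 FPKM in P3 replicate 2. Atp5pb, of the complex V stalk, was between 0.513 and 5.61 FPKM. For ND4, at 97.8 to 179 FPKM, a row on chromosome 20 annotated to the ND4 protein held 11.2 to 258 FPKM, with no order by group. The levels of Ndufa1 and ND4 are therefore uncertain, as is that of ATP8 for the reason given with its values.

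Lists of related genes were examined in the same fit, in which the median log2 fold change of all tested genes was -0.003 in P9 minus P3, -0.01 in FFSS minus P3 and 0.003 in P9 minus FFSS. Of 45 tested assembly factors, which build the complexes, 0 were called in P9 minus P3, 3 were higher and 3 lower in FFSS minus P3, and 5 were higher and 4 lower in P9 minus FFSS. The shares called higher and lower were 0 and 0% in P9 minus P3 (all tested genes, 5.39 and 4.44%), 6.67 and 6.67% in FFSS minus P3 (all tested genes, 11.4 and 10.4%) and 11.1 and 8.89% in P9 minus FFSS (all tested genes, 16.1 and 15.3%); the list's median log2 fold changes in that order were 0.01, 0.04 and 0.03. Cox14, an assembly factor that handles newly made COX1, had 220.4, 243 and 239.7 FPKM in P9, 305, 384 and 353 FPKM in FFSS and 203, 184 and 214 FPKM in P3 cells, with FFSS above all others. FFSS minus P3 was 0.79 ± 0.12, adjusted p 0.00373 by limma, and it held in the other settings (adjusted p 0.000655 to 0.0226). In P9 minus P3, dropping 1 library gave 1 higher and 0 lower (P9 replicate 1). Dropping 1 library changed the FFSS minus P3 calls to 1 higher and 0 lower (P3 replicate 1), 1 higher and 1 lower (P3 replicate 2), 2 higher and 1 lower (P3 replicate 3) and 7 higher and 6 lower (FFSS replicate 1). The P9 minus FFSS calls became, with 1 library dropped, 2 higher and 4 lower (P3 replicate 1 or 3), 1 higher and 4 lower (P9 replicate 3, FFSS replicate 2, or P3 replicate 2), 2 higher and 3 lower (P9 replicate 1), 1 higher and 2 lower (P9 replicate 2), 8 higher and 8 lower (FFSS replicate 1) and 2 higher and 2 lower (FFSS replicate 3).

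Of 9 subunits and carriers whose symbols fall outside the name rule, 0 were called in any comparison. With FFSS replicate 1 left out, 1 was higher in P9 minus P3, 1 was higher and 4 lower in FFSS minus P3, and 5 were higher in P9 minus FFSS. Of 27 genes for mitochondrial DNA transcription, replication and RNA handling, 0 were called in P9 minus P3, 2 were higher and 3 lower in FFSS minus P3, and 2 were higher and 1 lower in P9 minus FFSS. As shares of the list, higher and lower calls were 0 and 0% in P9 minus P3 (all tested genes, 5.39 and 4.44%), 7.41 and 11.1% in FFSS minus P3 (all tested genes, 11.4 and 10.4%) and 7.41 and 3.7% in P9 minus FFSS (all tested genes, 16.1 and 15.3%); the list's median log2 fold changes in that order were 0.03, -0.07 and -0.03. Lrpprc, which stabilises mitochondrial messengers, had 22.1, 16.5 and 15.4 FPKM in P9, 11.98, 9.96 and 12.3 FPKM in FFSS and 16.7, 16.6 and 16.4 FPKM in P3 cells. Against P3, the FFSS log2 fold change was -0.51 ± 0.15, adjusted p 0.0388 by limma, and it missed the threshold with no filter on low values (0.0569) and on leaving out P9 replicate 2, FFSS replicate 2 or 3, or any single P3 library (0.0578 to 0.116). Pnpt1 (-0.67 ± 0.16, limma adjusted p 0.0191) and Elac2 (-0.50 ± 0.15, 0.0403) were also lower in FFSS minus P3, while Polg2 was higher (1.09 ± 0.32, 0.0403). Each of these calls missed the threshold in some of the other settings. With 1 library dropped, FFSS minus P3 had 0 higher and 0 lower (P3 replicate 1 or 2), 1 higher and 0 lower (P3 replicate 3), 0 higher and 3 lower (P9 replicate 1), 0 higher and 1 lower (P9 replicate 2 or FFSS replicate 3), 0 higher and 2 lower (P9 replicate 3), 4 higher and 3 lower (FFSS replicate 1) and 1 higher and 2 lower (FFSS replicate 2). In P9 minus FFSS, dropping 1 library gave 1 higher and 1 lower (P9 replicate 3 or any single P3 library), 1 higher and 0 lower (P9 replicate 1 or FFSS replicate 3), 2 higher and 0 lower (P9 replicate 2), 3 higher and 6 lower (FFSS replicate 1) and 1 higher and 2 lower (FFSS replicate 2).

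Of 73 mitochondrial ribosomal protein genes, 1 was higher in P9 minus P3, 6 were higher and 3 lower in FFSS minus P3, and 4 were higher and 3 lower in P9 minus FFSS. Higher and lower calls made up 1.37 and 0% in P9 minus P3 (all tested genes, 5.39 and 4.44%), 8.22 and 4.11% in FFSS minus P3 (all tested genes, 11.4 and 10.4%) and 5.48 and 4.11% in P9 minus FFSS (all tested genes, 16.1 and 15.3%); the list's median log2 fold changes in that order were -0.01, 0.02 and 0.03. Mrpl41 of the large subunit had 34.1, 52.1 and 48.5 FPKM in P9, 61.6, 69.5 and 73.98 FPKM in FFSS and 31.2, 34.9 and 41.2 FPKM in P3 cells, and FFSS minus P3 was 0.92 ± 0.17, adjusted p 0.00845 by limma. Mrps18b of the small subunit had 17.05, 16.2 and 13.4 FPKM in P9, 11.2, 9.16 and 7.55 FPKM in FFSS and 15.3, 16.3 and 15.9 FPKM in P3 cells, and FFSS minus P3 was -0.72 ± 0.15, adjusted p 0.0116. Both calls held in the other settings. Dropping 1 library changed the P9 minus P3 calls to 0 higher and 0 lower (P9 replicate 2 or 3, FFSS replicate 3, or any single P3 library) and 2 higher and 0 lower (FFSS replicate 1). The FFSS minus P3 calls became, with 1 library dropped, 3 higher and 1 lower (P3 replicate 1 or 3), 4 higher and 1 lower (P3 replicate 2), 7 higher and 5 lower (P9 replicate 1), 8 higher and 9 lower (FFSS replicate 1) and 3 higher and 2 lower (FFSS replicate 3). With 1 library dropped, P9 minus FFSS had 1 higher and 2 lower (P9 replicate 2 or P3 replicate 1), 2 higher and 3 lower (P3 replicate 2), 3 higher and 1 lower (P9 replicate 1), 2 higher and 2 lower (P9 replicate 3), 13 higher and 6 lower (FFSS replicate 1), 2 higher and 1 lower (FFSS replicate 2) and 1 higher and 1 lower (FFSS replicate 3).

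Of 9 tested regulators, Pprc1, a coactivator of nuclear genes for mitochondria, was lower in FFSS cells. It had 12.7, 11.8 and 12.5 FPKM in P9, 5.98, 7.32 and 6.50 FPKM in FFSS and 13.4, 12.1 and 13.1 FPKM in P3 cells. The FFSS libraries were below all others, and FFSS minus P3 was -0.87 ± 0.11 with a limma adjusted p of 0.00181, and it held in the other settings (adjusted p 0.000754 to 0.0153). Ppard, a lipid-sensing nuclear receptor, had 4.62, 4.68 and 4.97 FPKM in P9, 9.69, 9.32 and 8.20 FPKM in FFSS and 7.55, 6.59 and 9.19 FPKM in P3 cells. P9 minus P3 was -0.60 ± 0.14, adjusted p 0.0253 by limma, which missed the threshold on leaving out any single P9 library or P3 replicate 1 or 3 (0.0634 to 0.109). The list's counts were 0 higher and 1 lower in P9 minus P3, 0 and 1 in FFSS minus P3, and 2 and 1 in P9 minus FFSS. In shares these were 0 and 11.1% in P9 minus P3 (all tested genes, 5.39 and 4.44%), 0 and 11.1% in FFSS minus P3 (all tested genes, 11.4 and 10.4%) and 22.2 and 11.1% in P9 minus FFSS (all tested genes, 16.1 and 15.3%); the list's median log2 fold changes in that order were -0.16, 0.09 and -0.15. In P9 minus P3, dropping 1 library gave 0 higher and 0 lower (any single P9 library or P3 replicate 1 or 3). Dropping 1 library changed the FFSS minus P3 calls to 1 higher and 2 lower (FFSS replicate 1). The P9 minus FFSS calls became, with 1 library dropped, 1 higher and 1 lower (any single P9 library, FFSS replicate 2, or any single P3 library) and 2 higher and 3 lower (FFSS replicate 1).

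Of 16 chaperones, proteases and stress targets of mitochondria, 0 were higher in either model against P3, 2 were lower in P9 and 3 in FFSS, and 4 were higher and 2 lower in P9 minus FFSS. Of the list, the higher and lower calls were 0 and 12.5% in P9 minus P3 (all tested genes, 5.39 and 4.44%), 0 and 18.8% in FFSS minus P3 (all tested genes, 11.4 and 10.4%) and 25 and 12.5% in P9 minus FFSS (all tested genes, 16.1 and 15.3%); the list's median log2 fold changes in that order were -0.06, -0.19 and 0.08. Hspa9, the chaperone that pulls proteins into the matrix, had 105, 107 and 101 FPKM in P9, 85.4, 75.3 and 74.1 FPKM in FFSS and 158, 163 and 149.7 FPKM in P3 cells. The groups did not overlap, and P9 minus P3 was -0.58 ± 0.10, adjusted p 0.00607 by limma. The FFSS to P3 log2 fold change was -0.997 ± 0.10, adjusted p 0.000651. Lonp1, a matrix protease, had 50.8, 60.5 and 59.1 FPKM in P9, 45.99, 35.7 and 40.1 FPKM in FFSS and 86.4, 89.9 and 81.8 FPKM in P3 cells. Against P3, the P9 log2 fold change was -0.59 ± 0.12, adjusted p 0.016 by limma, and it missed the threshold on leaving out P9 replicate 1 or any single P3 library (0.0525 to 0.0747). Its FFSS minus P3 change was -1.07 ± 0.12, adjusted p 0.00117. Both comparisons share the P3 libraries. Atf4, a transcription factor of the stress response, had 129, 185 and 179.5 FPKM in P9, 206, 342 and 272 FPKM in FFSS and 252, 252 and 247 FPKM in P3 cells, and for P9 minus FFSS it was -0.72 ± 0.20, adjusted p 0.0254 by limma, which missed the threshold with only the compared groups in the fit (0.0755) and on leaving out P9 replicate 1 or FFSS replicate 2 or 3 (0.068 to 0.0757). With 1 library dropped, P9 minus P3 had 0 higher and 1 lower (P9 replicate 1 or any single P3 library), 1 higher and 4 lower (FFSS replicate 1) and 0 higher and 4 lower (FFSS replicate 2). In FFSS minus P3, dropping 1 library gave 2 higher and 4 lower (FFSS replicate 1). Dropping 1 library changed the P9 minus FFSS calls to 4 higher and 1 lower (P3 replicate 2 or 3), 5 higher and 0 lower (P9 replicate 1 or FFSS replicate 2), 2 higher and 1 lower (P9 replicate 2), 3 higher and 1 lower (P9 replicate 3), 4 higher and 4 lower (FFSS replicate 1) and 0 higher and 0 lower (FFSS replicate 3).

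Of 12 enzymes of the tricarboxylic acid cycle, which feeds electrons to the chain, 1 was lower in P9 minus P3, 2 were lower in FFSS minus P3, and 3 were higher and 2 lower in P9 minus FFSS. Calls up and down came to 0 and 8.33% in P9 minus P3 (all tested genes, 5.39 and 4.44%), 0 and 16.7% in FFSS minus P3 (all tested genes, 11.4 and 10.4%) and 25 and 16.7% in P9 minus FFSS (all tested genes, 16.1 and 15.3%); the list's median log2 fold changes in that order were 0.12, -0.14 and 0.37. Fh, fumarase, had 52.4, 42.8 and 40.2 FPKM in P9, 32.3, 22.3 and 25.5 FPKM in FFSS and 33.00, 35.3 and 30.7 FPKM in P3 cells, and P9 minus FFSS was 0.74 ± 0.16, adjusted p 0.00769 by limma, and it held in the other settings (adjusted p 0.00118 to 0.0324). Idh3a, of isocitrate dehydrogenase, had 47.4, 44.8 and 42.5 FPKM in P9, 34.99, 27.3 and 27.1 FPKM in FFSS and 39.2, 38.9 and 42.6 FPKM in P3 cells, and P9 minus FFSS was 0.58 ± 0.12, adjusted p 0.00727, and it held in the other settings (adjusted p 0.000653 to 0.0358). The P9 minus P3 calls became, with 1 library dropped, 0 higher and 0 lower (any single P9 library, FFSS replicate 3, or any single P3 library) and 1 higher and 1 lower (FFSS replicate 1). With 1 library dropped, FFSS minus P3 had 0 higher and 0 lower (FFSS replicate 2 or 3 or any single P3 library), 0 higher and 1 lower (P9 replicate 2 or 3) and 0 higher and 4 lower (FFSS replicate 1). In P9 minus FFSS, dropping 1 library gave 3 higher and 0 lower (P3 replicate 1), 3 higher and 1 lower (P9 replicate 1 or 2, FFSS replicate 2, or P3 replicate 2 or 3), 4 higher and 0 lower (P9 replicate 3 or FFSS replicate 3) and 7 higher and 2 lower (FFSS replicate 1).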

How the data were processed

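The authors deposited FPKM values of 34267 genes in 9 libraries of poly(A)-selected RNA, per the labels' protocols. HISAT2 2.0.5, featureCounts 1.5.0-p3 and the build Rnor_6.0 are named in the submitters' processing notes. Their settings and the strandedness are not given in the sources used here. Value times gene length was a whole multiple of 1 step per library for 100% of values (tolerance 0.01 of a step), which gave the fragments. The step already carries a median-of-ratios scaling. On a gene of 1 kilobase, 1 fragment was 0.0619 to 0.0733 FPKM, and a count of 0 allows 3 fragments; these limits cover counting error only.

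A gene was tested if 3 or more libraries had 1 FPKM or more. limma 3.58.1 (R 4.3.3) was run on log2(FPKM + 1) of all 9 libraries with a trend in the spread, 6 residual and 2.93 prior degrees of freedom. Calls used a two-sided Benjamini-Hochberg adjusted p under 0.05 over all 13059 genes; fold changes on this scale understate the change of low genes. The other settings were a pseudocount of 0.1, no filter, a 5 FPKM filter, library totals, voom on the recovered fragments, only the compared groups, a replicate block and each library left out, 16 in all. The fit was tested on simulated data. Tables and figures used Python 3.11.15, NumPy 2.4.6, pandas 2.3.3 and matplotlib 3.10.9.

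The members and lists were chosen with earlier results of these data known. Named are all mitochondrial members; up to 8 called nuclear members per direction and comparison by adjusted p; the highest nuclear member of each complex; the isoform sets, complex II and Atp5if1; and up to 4 called genes per other list and comparison. Ndufv1, Ndufa3, Atp5me, Ndufa1 and Atp5pb were added outside this rule. Gene symbols came from the deposited table.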

Additional observations from a re-analysis of the deposited data

Results flagged for a closer look

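Mitochondrial ribosomal RNA, which lies outside the members and should be largely removed by poly(A) selection, was a signal above the control level in shear-treated cells. It averaged 0.109% of the fragments in FFSS libraries, with a range of 0.0557% to 0.170%, and was 0.0346% to 0.0492% in P9 and 0.0258% to 0.0316% in P3 libraries.

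A row on nuclear chromosome 5 annotated to the COX3 protein also carried signal above P3. It averaged 4.19 FPKM in FFSS libraries (4.04 to 4.36), and was 2.13 to 4.65 FPKM in P9 and 1.47 to 1.95 FPKM in P3 libraries. COX3 itself was at 2833 FPKM or more in all libraries.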

How the results depend on the processing

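With 3 libraries a group, many calls near the threshold changed with single libraries, and 6 nuclear members were too low to test. Cox6a2 in all 3 comparisons, ATP8 and Cox4i2 in FFSS minus P3, and Cox4i2, Uqcrq and Sdhc in P9 minus FFSS passed in each setting in which they were tested. The level of the ATP8 row is uncertain. No named member changed direction while called. With no filter on low values, 1 nuclear member was higher in P9 minus P3, 1 mitochondrial member was higher in FFSS minus P3 and 0 were lower in P9 minus FFSS; the cause was not tested. With only the compared groups in the fit, 4 nuclear members were higher in P9 minus P3, and in P9 minus FFSS 3 nuclear members were higher, 1 nuclear and 0 mitochondrial lower. With a 5 FPKM filter, which removes the low isoforms, 1 nuclear member was lower in P9 minus FFSS.

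Leaving out each library in turn gave 2 to 4 mitochondrial members higher in FFSS minus P3 and 3 to 5 lower in P9 minus FFSS. Nuclear members higher ranged from 0 to 3 in P9 minus P3, 1 to 9 in FFSS minus P3 and 3 to 15 in P9 minus FFSS. Nuclear members lower ranged from 1 to 4 in FFSS minus P3 and 2 to 4 in P9 minus FFSS. The replicate numbers did not pair the samples: deviations of same-numbered libraries correlated at -0.04 to 0.03. With the replicate block, 1 nuclear member was higher in P9 minus P3 and 3 in P9 minus FFSS. Of the calls named with their values, those of Uqcrq (limma adjusted p 0.0611), Ppard (0.0621) and Lonp1 (0.0526) in P9 minus P3 missed the threshold with the block. So did those of Ndufa6 (0.0838), Lrpprc (0.0556) and Elac2 (0.0679) in FFSS minus P3. In P9 minus FFSS, those of Ndufs1 (0.0941), Ndufa10 (0.0964) and Atp5f1b (0.0821) missed it.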
